A study of Mus musculus with 12 samples.

Results

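The comparison described here set CCE mouse embryonic stem cells that carried a short hairpin RNA against the noncoding RNA TUNA for 6 days against the same cells with a control hairpin at day 2. A gene entered when it reached at least 10 normalized counts in at least 3 of the 6 libraries compared, and when it was among the 8739 rows tested across all 12 libraries of the study. This left 8041 genes of 37477 rows in the table. Of these, 6416 reached the minimum in all 3 libraries of both groups. Another 542 did so in all 3 control libraries but not in all of day 6, 560 in all 3 day 6 libraries but not in all controls, and 523 in neither whole group. For 104 genes the minimum was reached in day 6 libraries alone and for 82 in control libraries alone. Such genes had to differ between the groups to enter. They are given beside the main counts of calls and beside the count of each gene list that they touch.

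CCE is an established line of mouse embryonic stem cells, grown here in serum with the cytokine LIF. Both groups received a pLKO.1-puro lentivirus and, from 1 day later, puromycin at 1 µg/ml in the medium. The 3 control libraries carry the control hairpin and were made at day 2, and the 3 libraries compared with them carry the TUNA hairpin and were made at day 6. Hairpin libraries of day 2 and day 4, also 3 each, are given beside the results. Because the control was taken at day 2, the hairpin and the additional days in culture under selection cannot be told apart. Whether the replicates came from separate cultures is not stated in the labels, and the p-values rest on the variation among the libraries alone, some or all of which could be technical. In a mixture of cells, a change in the number of cells of a kind and a change in RNA per cell cannot be told apart.

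Embryonic stem cells hold an undifferentiated state through a network of transcription factors, with Pou5f1, Sox2 and Nanog at its centre and LIF feeding it through Stat3. When such cells leave that state they flatten and spread, and they build actin stress fibres and contacts with the matrix. Genes for contractile proteins are read in many cells by serum response factor (SRF) with its actin-sensing partners of the MRTF family, and genes for spreading and matrix by YAP with the TEAD factors. TUNA, whose gene is named Tunar, is a long intergenic noncoding RNA that was described in mouse embryonic stem cells as a partner of the RNA-binding proteins hnRNP K, PTBP1 and nucleolin at the genes of Nanog, Sox2 and Fgf4. The study asked what its depletion does to the transcriptome of these cells.

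Total recovered reads in the 6 libraries ran from 3683180 to 5429717. Between 60.4% and 75.52% of them fell in 3 rows, Rnu3a, Tex14 and LOC100503663, so that 1146119 to 1503375 reads per library covered everything else. The row of the targeted RNA, named 2810011L19Rik in the table, was listed at 0 in all 12 libraries, so the depletion could not be checked here. The 12 markers of embryonic stem cells were all present among the genes compared, and their summed level was 3368 to 3604 normalized counts in the control libraries and 2231 to 2660 at day 6. Hnrnpk (log2 change -0.01, SE 0.18, adjusted p = 0.984 by limma), Ptbp1 (0.11, SE 0.23, adjusted p = 0.85) and Ncl (-0.22, SE 0.18, adjusted p = 0.561), the genes of the reported protein partners, did not pass the test. The Ncl row was not level between these days: its hairpin mean was 3314 ± 492 at day 2 and 291 ± 62.8 at day 4 (SD, n = 3). Its day 6 to day 2 change under the hairpin was -2.98 (adjusted p = 1.91e-08 by limma). Reads of any small RNA inside a gene cannot be told apart from its messenger, and which of them changed in the Ncl row was not tested. The value of Hnrnpk turned to 0.19 without day 6 replicate 3 (adjusted p = 0.554, in a range of 0.554 to 0.923 over the libraries left out in turn).

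At an adjusted p under 0.05 in a limma fit, 254 genes were higher at day 6 (3.16% of the 8041) and 268 were lower (3.33%), or 6.49% in either direction. Over all 8739 rows tested the shares were 3.07% higher, 3.15% lower and 6.21% in either direction. Of the higher genes 50 had reached the minimum in day 6 libraries alone, and of the lower genes 35 in control libraries alone. The groups did not overlap for 250 of the 254 and for 268 of the 268. Over all genes compared, the 3 day 6 values all lay above the 3 control values for 890 genes (11.1%) and all below for 1055 (13.1%). Genes that reached the minimum in only day 6 or only control libraries could not overlap. Part of each of these counts was therefore fixed by the entry rule. The median change of the higher genes was 1.16 on the log2 scale and that of the lower genes -0.96, while the median over all 8041 was -0.01. A change above 2 was found for 42 genes and a change below -2 for 23. Leaving out single libraries moved these counts: without day 6 replicate 1 there were 129 higher and 167 lower genes, without control replicate 1 158 and 155, and without control replicate 2 174 lower.

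**Figure D1:**
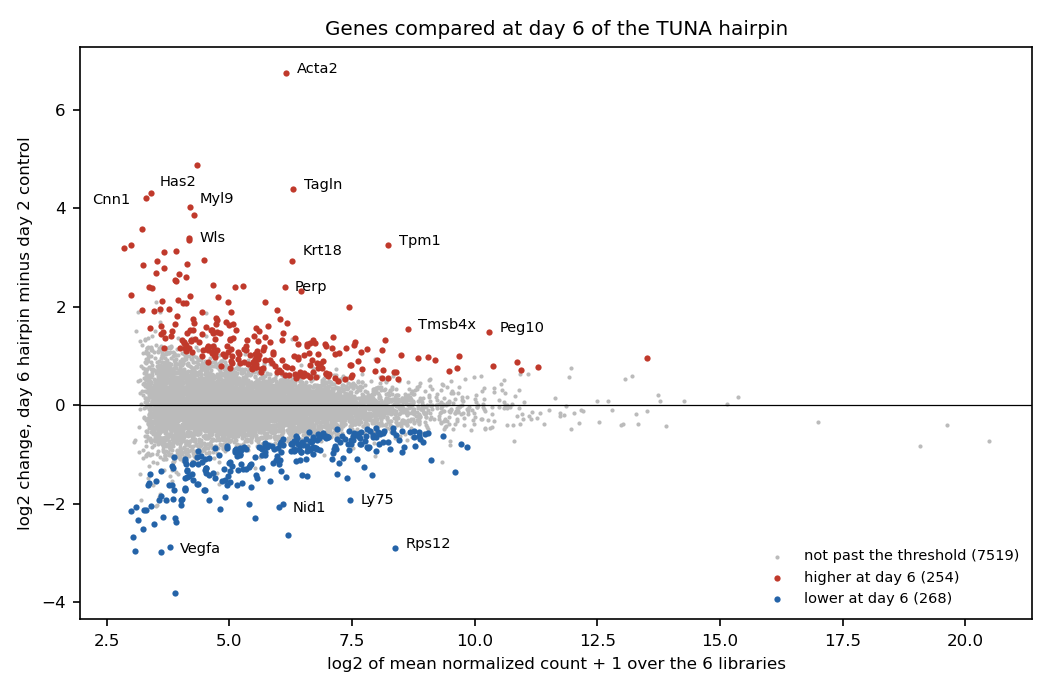
Each point is 1 of the 8041 genes, placed by its mean level over the 6 libraries (x axis, log2 of the mean normalized count plus 1) and by its log2 change from the day 2 control to the day 6 hairpin libraries (y axis). Red points passed the test as higher (254) and blue points as lower (268); the rises reach further from 0 than the falls, with Acta2, Tagln and Tpm1 at the top, and the heights of genes at 0 in the control depend on the pseudocount of 1.

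Genes of actin filaments and of the contractile apparatus made up 8 of the 20 largest rises that the rule for named genes picked. Of the 8, Acta2, Tagln and Flnc had entered through day 6 alone. The list and the rule were chosen with earlier results of these data known, so this count is descriptive. Of 45 genes listed for actin filaments and contractility, 34 were compared: 15 rose, none fell and 19 did not pass the limma test, against 3.16% and 3.33% of all genes. No member of the list was lower at an unadjusted p under 0.05 either, nor with precision weights from voom. The median change was 0.65, and 0.44 over the 29 members left without the 5 that had reached the minimum in day 6 libraries alone; of the 29, 10 rose. Summed over the list, the level was 4496 to 4968 normalized counts in the control libraries and 7482 to 8090 at day 6.

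Acta2, the smooth muscle form of actin, was listed at 0 in control replicates 1 and 2 and at 1.1 in replicate 3, and held 151, 171 and 98.5 normalized counts at day 6 (adjusted p = 1.05e-05). Its mean was 4.05 ± 5.2 in the hairpin libraries of day 2 and 5.48 ± 3.58 at day 4 (SD, n = 3), so the high values were found at day 6 and not in the earlier hairpin libraries (log2 change from day 2 to day 6 under the hairpin, adjusted p = 0.000143). Tagln, which encodes the actin-binding protein transgelin, held 6.76, 7.55 and 4.41 in the controls and 146, 158 and 144 at day 6, a log2 change of 4.40 (SE 0.37, adjusted p = 3.32e-06). Both genes had entered through day 6 alone, so their groups could not overlap. The lowest day 6 values, 98.5 and 144, stood against highest control values of 1.1 and 7.55. Cnn1, encoding calponin 1, was listed at 0 in all 3 controls and held 16.5, 22.6 and 14.2 at day 6 (adjusted p = 0.0044); its earlier hairpin means were 0.37 at day 2 and 0.814 at day 4. Its relative Cnn2 was already present in the controls at 16.9, 27.5 and 14.3 and reached 77.1, 83.2 and 93.2 (log2 change 2.10, SE 0.26, adjusted p = 9.89e-05). The groups of Cnn2 did not overlap, and those of Cnn1, which had also entered through day 6 alone, could not.

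The tropomyosins, which lie along the actin filament and set which proteins can bind it, rose as well. Tpm1 held 85.1, 42.2 and 47.4 normalized counts in the controls and 473, 490 and 673 at day 6, a log2 change of 3.26 (SE 0.26, adjusted p = 3.32e-06). It stood at 124 ± 22 in the day 2 hairpin libraries and at 95 ± 35.7 at day 4, between the 2 groups compared. Tpm4 went from 22.4, 30.1 and 31.9 to 131, 188 and 119 (2.32, SE 0.26, adjusted p = 3.83e-05), whereas Tpm3 had a change of -0.23 and did not pass. Myl9, the regulatory light chain of non-muscle and smooth muscle myosin, held 0, 1.67 and 2.21 in the controls and 32.6, 43.5 and 23.6 at day 6 (adjusted p = 0.000307). The heavy chains of non-muscle myosin did not pass the test, with changes of 0.02 for Myh9 and 0.30 for Myh10.

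Proteins that cross-link or sequester actin followed. Tmsb4x, the main actin monomer-binding thymosin, rose from 210, 176 and 214 to 583, 699 and 494 (1.55, SE 0.16, adjusted p = 1.49e-05), and its relative Tmsb10 had a change of 0.17 that did not pass. Flna and Flnc encode filamins, long cross-linkers of actin. Flna rose by 0.68 (adjusted p = 0.00434) and Flnc by 2.19 (adjusted p = 0.00154), the latter from 8.59, 7.03 and 9.44 to 30.3, 35.0 and 66.6 normalized counts. Cald1, encoding caldesmon, rose by 1.39 (SE 0.18, adjusted p = 0.000166), Csrp1 by 2.10 (SE 0.39, adjusted p = 0.00303) and Actn1, an actinin, by 1.12 (SE 0.27, adjusted p = 0.0168). Lpp, a protein of focal contacts, rose from 73.2, 73.1 and 55.8 to 252, 211 and 365 (1.99, SE 0.28, adjusted p = 0.000278). Its row spans an annotated small RNA whose reads cannot be separated from it. The cytoplasmic actins did not pass: Actb had 1407, 1788 and 1894 normalized counts in the controls and 2296, 2532 and 1574 at day 6, with day 6 replicate 3 inside the control range (0.31, SE 0.18, adjusted p = 0.35), and Actg1 changed by 0.43 (adjusted p = 0.462). The list therefore held muscle-type and regulatory proteins among its rises, and its most abundant actins among the genes that did not pass.

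**Figure D2:**
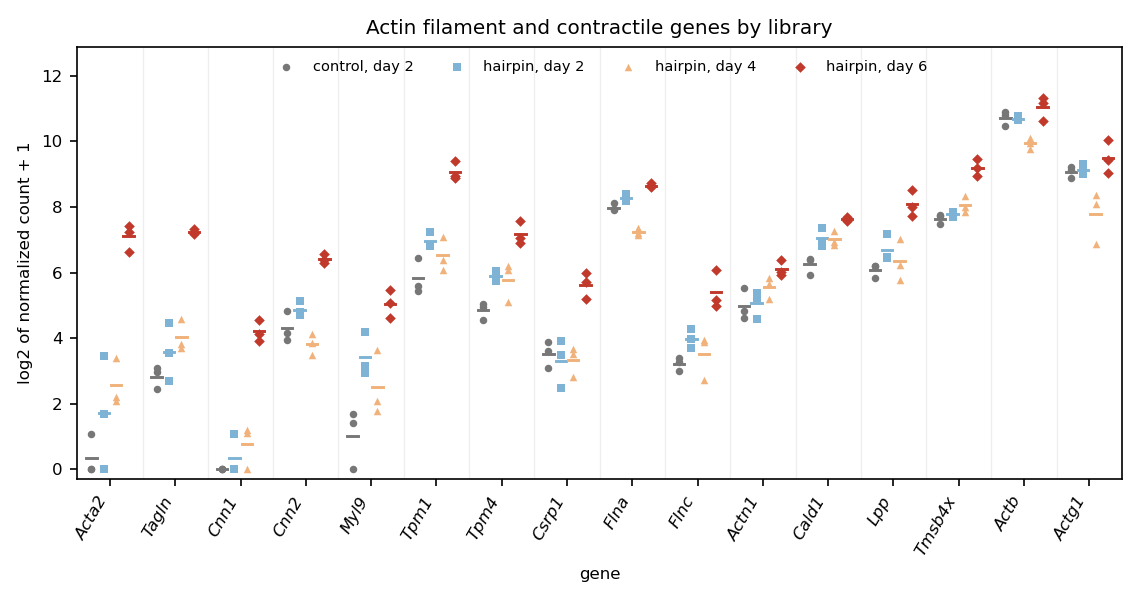
Log2 of the normalized count plus 1 (y axis) for 16 genes of actin filaments and contractility (x axis) in each library: grey circles for the day 2 control, blue squares, orange triangles and red diamonds for the hairpin at day 2, 4 and 6, with a bar at the mean of each group of 3. For Acta2, Tagln, Cnn1 and Cnn2 the day 6 points stand clear of all earlier ones, while those of Actb and Actg1 overlap the control.

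Upstream sequences are shown for 4 of the genes that rose, because SRF and TEAD factors recognise short motifs near the starts of contractile and matrix genes. Windows of the 250 bases before the annotated gene start were taken from RefSeq (GRCm38.p6, matched by symbol; the deposited counts were made on mm9). Capitals mark the motif: the exact CArG box, the SRF element, in Myl9 (chr2:156775214-156775463, plus strand) and Cnn2 (chr10:79988350-79988599, plus strand), and GGAATG or its complement CATTCC, the core of the TEAD element, in Acta2 (chr19:34255374-34255623, minus strand) and Cyr61 (chr3:145649986-145650235, minus strand, Ccn1 in RefSeq). The sequences read 5′ to 3′ toward the gene start:
Myl9: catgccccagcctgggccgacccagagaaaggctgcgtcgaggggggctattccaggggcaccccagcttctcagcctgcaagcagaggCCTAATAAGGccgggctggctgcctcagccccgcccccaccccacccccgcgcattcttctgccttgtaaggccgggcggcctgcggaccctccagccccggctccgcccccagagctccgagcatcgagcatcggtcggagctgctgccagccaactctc
Cnn2: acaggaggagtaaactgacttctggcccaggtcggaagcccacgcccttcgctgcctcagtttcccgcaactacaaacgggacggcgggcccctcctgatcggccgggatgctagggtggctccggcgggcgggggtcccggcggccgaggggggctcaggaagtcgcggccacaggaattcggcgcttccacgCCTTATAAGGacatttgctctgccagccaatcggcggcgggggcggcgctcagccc
Acta2: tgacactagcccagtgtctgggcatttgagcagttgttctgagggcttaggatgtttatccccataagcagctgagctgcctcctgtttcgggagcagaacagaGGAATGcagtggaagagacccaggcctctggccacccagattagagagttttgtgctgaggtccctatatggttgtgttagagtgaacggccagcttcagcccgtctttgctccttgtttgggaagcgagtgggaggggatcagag
Cyr61: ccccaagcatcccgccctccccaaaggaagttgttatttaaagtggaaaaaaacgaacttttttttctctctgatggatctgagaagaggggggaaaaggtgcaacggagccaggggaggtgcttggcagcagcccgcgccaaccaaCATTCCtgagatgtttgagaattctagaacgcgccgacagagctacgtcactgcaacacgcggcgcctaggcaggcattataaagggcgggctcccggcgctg
The motif starts 161 bases before the gene start in Myl9, 56 in Cnn2, 146 in Acta2 and 103 in Cyr61. Of the 15 actin genes that rose, 13 had a window, and 2 of these held an exact CArG box (15.38%), against 439 of 27025 windows of all genes (1.62%). The list was drawn up with SRF targets among its members, and both genes with the box, Myl9 and Cnn2, are listed as such. Of the 17 actin genes with a window that were compared and did not pass, 4 held the box (23.53%), so its share was not higher among those that rose. GGAATG on either strand was present in 6 of the 13 (46.2%) and in 5 of the 17 (29.4%), against 3880 of all windows (14.4%). An exact CArG box here is CC, 6 bases of A or T, and GG, and near matches were not counted. The Acta2 window holds ccctatatgg and ccttgtttgg, which are such near matches. A match is a string in the window and not evidence of binding, and the windows cover neither introns nor distant elements.

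Among 28 listed targets of SRF and its MRTF partners, 16 were compared. Of these, 8 rose and none fell, against 3.16% and 3.33% of all genes. None was lower at an unadjusted p under 0.05 or with voom weights. The median change was 0.72, and 5 of the 16 had reached the minimum in day 6 libraries alone. Of the other 11, 3 rose. Of the 8, 7 are also on the actin list, among them Acta2, Tagln, Cnn1 and Tpm1, so these are not separate evidence. The remaining member that rose was Cyr61, a matrix-associated signalling protein, with 3.18, 2.76 and 0 normalized counts in the controls and 28.8, 15.5 and 20.1 at day 6 (adjusted p = 0.00617). Srf itself was too low to be compared, at 5.42 ± 1.07 in the control and 5.36 ± 0.785 at day 6 (SD, n = 3). Of the immediate early targets on the list, Ier2 changed by -0.12 and Junb by 0.77, neither past the threshold, and Fos, Fosb and the Egr genes listed were too low to be compared.

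For YAP and TEAD, 14 of 27 listed genes were compared, 5 rose and 1 fell, against 3.16% and 3.33% of all genes. Cyr61 and Thbs1 had entered through day 6 alone and Tead4, the fall, through the control alone; of the other 11, 3 rose and none fell. Thbs1, encoding thrombospondin 1, held 0, 2.44 and 3.31 normalized counts in the controls and 36.8, 30.5 and 36.8 at day 6 (adjusted p = 0.00569). Ctgf, a matrix-associated growth factor, went from 6.04, 8.28 and 11 to 26.1, 23.3 and 24.3 with no overlap, yet its call (adjusted p = 0.0414) was lost without any 1 of the 6 libraries (0.0579 to 0.159). The TEAD factors themselves moved apart. Tead4 fell from 27.4, 18.1 and 24.2 to 7.4, 3.81 and 1.9 (-2.29, SE 0.49, adjusted p = 0.00848), and Tead1 rose from 78.7, 98.0 and 58.7 to 142, 112 and 322 (1.16, SE 0.28, adjusted p = 0.0185), a call that ended without control replicate 1, control replicate 3 or day 6 replicate 3 (range 0.00504 to 0.0913). Yap1 did not pass (0.68, SE 0.23, adjusted p = 0.0943). The number of risen genes on this list was 2 without control replicate 1 or control replicate 3, and 3 without day 6 replicate 1 or day 6 replicate 3.

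Smooth muscle and fibroblast markers were read beside these genes. Of 15 smooth muscle markers, Acta2, Tagln and Cnn1 were compared, and all 3 rose and had entered through day 6 alone. Another 7, among them Myh11, Myocd and Mylk, were listed at 0 in all 6 libraries, and the list summed to 13.7 to 16.4 normalized counts in the controls and 270.9 to 359.4 at day 6. Of 27 markers of fibroblasts and feeder cells, 15 were at 0 in all 6 libraries, including Col1a1, Col1a2, Col3a1, Dcn and Postn. The list summed to 76.6 to 96.1 in the controls and 123.4 to 171.3 at day 6. The 1 fibroblast marker that could be compared was Vim, the intermediate filament vimentin, with 54.1, 58.5 and 57.8 in the controls and 145, 149 and 108 at day 6 (1.21, SE 0.20, adjusted p = 0.00115). The fibroblast collagens Col1a1, Col1a2 and Col3a1 and the smooth muscle myosin Myh11 were at 0 in libraries where Acta2 and Tagln were high. The sums of both lists were nevertheless higher at day 6, and a 0 means at most 1 normalized count. Whether cells of either kind were present was not tested.

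Contacts with the matrix changed in part. Of 12 integrin and focal adhesion genes compared (28 listed), 3 rose and none fell, against 3.16% and 3.33% of all genes. At an unadjusted p under 0.05, 2 were lower. Parva had entered through day 6 alone and Itga9, which did not pass, through the control alone. Itgav, the alpha chain of vitronectin receptors, rose from 32.5, 32.7 and 30.7 to 75.7, 81.0 and 81.5 (1.29, SE 0.16, adjusted p = 9.71e-05), and Itgb1, the common beta chain, from 56.7, 60.2 and 40 to 86.3, 115 and 113 (1.00, SE 0.19, adjusted p = 0.00336). Itgav was higher in the hairpin libraries of day 4, at 117, than at day 6. Parva, an adaptor at adhesions, held 1.73, 0 and 0 in the controls and 11.5, 11.7 and 12.3 at day 6 (adjusted p = 0.00672). Itga6, the laminin receptor chain typical of stem cells, had a change of -0.56 that did not pass. Without day 6 replicate 3, 2 genes of this list were called lower.

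Among 20 matrix genes compared (41 listed), 6 rose and 1 fell, against 3.16% and 3.33% of all genes. Thbs1 and Timp3, both among the rises, had entered through day 6 alone. Vcan, the proteoglycan versican, rose from 75, 74.8 and 67.8 to 183, 159 and 177 (1.24, SE 0.16, adjusted p = 0.00018), and Plod2, an enzyme of collagen maturation, from 34.0, 26.4 and 22.2 to 54.3, 55.8 and 57.7 (1.02, SE 0.20, adjusted p = 0.00415). Timp3, an inhibitor of matrix proteases, went from 1.73, 3.81 and 1.1 to 11.3, 28.1 and 24.7 (2.79, SE 0.55, adjusted p = 0.00492). Basement membrane genes did not move together. Nid1, which links laminin to collagen IV, fell from 108, 115 and 100 to 27.5, 22.8 and 28.2 (-2.0, SE 0.19, adjusted p = 6.43e-06), with intermediate means of 68 at day 2 and 38 at day 4 of the hairpin. Lamb1, a laminin chain, rose by 1.01 (adjusted p = 0.0183), a call lost without control replicate 2 or day 6 replicate 2 (0.0344 to 0.0977), and Fn1, Sparc and Col4a1 had changes of -0.07, 0.02 and 0.03. Without control replicate 3, 2 genes of the list fell.

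In the TGF-beta and BMP list, 20 of 37 genes were compared, 3 rose and 1 fell, against 3.16% and 3.33% of all genes. Id2, among the rises, had entered through day 6 alone. Id2 and Id3 are targets of BMP signals that block lineage factors. Id2 held 1.73, 3.72 and 2.21 in the controls and 17.2, 18.7 and 15.2 at day 6 (2.38, SE 0.41, adjusted p = 0.00196), and Id3 rose by 1.21 (SE 0.25, adjusted p = 0.00663), while Id1 changed by 0.32 without passing. Skil, a repressor of SMAD transcription factors, rose from 166, 190 and 157 to 371, 418 and 340 (1.13, SE 0.13, adjusted p = 5.33e-05) and was higher still at day 4, at 560. Nodal, a ligand of the pathway, fell by 0.86 on the log2 scale (adjusted p = 0.0134), a call lost without control replicate 1 or day 6 replicate 1 (0.0236 to 0.0866). Smad2 and Smad4 themselves had changes of -0.14 and 0.05.

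Among epithelial genes, 3 keratins rose and another fell. Of 22 epithelial junction and keratin genes compared, 6 rose and 1 fell, against 3.16% and 3.33% of all genes. Krt8, Krt19, Dsc2 and Dsp had entered through day 6 alone and Krt42 and Ezr through the control alone; of the other 16, 3 rose and none fell. Krt18 went from 11.2, 17.4 and 23 normalized counts to 151, 153 and 102 (2.93, SE 0.28, adjusted p = 6.43e-06), and its pairing partner Krt8 from 9.49, 7.44 and 7.72 to 32.9, 39.3 and 27.5 (1.89, SE 0.42, adjusted p = 0.0111). The groups of Krt18 did not overlap, and those of Krt8 could not, given its entry through day 6 alone. The call of Krt8 ended without day 6 replicate 1 or day 6 replicate 2 (0.0237 to 0.0598). Krt19 held 4.31, 4.6 and 0 in the controls and 35.9, 34.3 and 23.6 at day 6 (adjusted p = 0.00176). These keratins belong to simple epithelia and are also used as markers of trophoblast and endoderm.

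Perp, a desmosome protein that is also a target of p53, rose from 31.1, 15.0 and 19.9 to 107, 124 and 116 (2.40, SE 0.22, adjusted p = 6.43e-06), with means of 45.7 at day 2 and 74.1 at day 4. Dsc2, a desmosomal cadherin, rose by 1.96 (SE 0.40, adjusted p = 0.00577). The other desmosome genes compared did not pass, with changes of 1.5 for Dsp (adjusted p = 0.0655), 0.24 for Pkp2, 0.06 for Jup and 0.01 for Dsg2. Cdh1, which encodes E-cadherin, held 77.3, 91.9 and 92.6 in the controls and 118, 96.4 and 76.6 at day 6, with overlapping groups (0.13, SE 0.17, adjusted p = 0.74). Krt42 was the member that fell, by 2.14 on the log2 scale (adjusted p = 0.0279), a call lost without any library other than day 6 replicate 3 (0.0499 to 0.0931) and with a pseudocount of 0.5.

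Mesenchymal genes gave 5 rises and no fall among 9 compared (23 listed), against 3.16% and 3.33% of all genes. None was lower at an unadjusted p under 0.05 or with voom weights. Of the 9, 4 had entered through day 6 alone, among them the risen genes Anxa1, Zeb2 and Nes. Of the other 5, 2 rose and none fell. Beside Vim, Ahnak, a large scaffold protein under the membrane, rose from 135, 162 and 109 to 298, 209 and 418 (1.15, SE 0.22, adjusted p = 0.00379). Anxa1, a calcium-dependent membrane binder, rose from 6.76, 7.26 and 5.51 to 56.3, 25.2 and 44.5 (2.45, SE 0.42, adjusted p = 0.00182). Zeb2, a repressor of epithelial genes, held 0, 1.84 and 0 in the controls and 13.7, 16.1 and 18.0 at day 6 (adjusted p = 0.00349). Its row spans a small RNA. Zeb1 changed by -0.35 and Fn1 by -0.07, neither past the threshold, and Snai1 was listed at 0 in all 6 libraries.

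Imprinted genes, which are read from the maternal or paternal copy alone, gave 7 rises and no fall among 15 compared of 28 listed. The shares over all genes were 3.16% higher and 3.33% lower. No imprinted gene was called lower with voom weights, and 1 was lower at an unadjusted p under 0.05. The median change was 0.99, or 0.69 over the 13 left without Igf2 and Nnat, which had entered through day 6 alone; of the 13, 6 rose. Peg10, a gene of retroviral origin needed in the placenta, was the most abundant, with 638, 821 and 529 normalized counts in the controls and 1835, 1512 and 2228 at day 6 (1.49, SE 0.18, adjusted p = 5.33e-05). It stood at 589 in the hairpin libraries of day 2 and 702 at day 4, near the control. Igf2, a fetal growth factor, held 2.17, 0 and 4.41 in the controls and 21, 17.1 and 18.0 at day 6 (adjusted p = 0.00586). Plagl1, a zinc finger factor, rose from 10.4, 7.44 and 8.82 to 26.0, 28.1 and 27.7 (1.53, SE 0.31, adjusted p = 0.00586).

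Gnas rose by 1.07 (SE 0.22, adjusted p = 0.00586), and its mean of 79 at day 4 was already at the day 6 level of 78.9. Peg3, Grb10 and the noncoding Kcnq1ot1 also passed, but each lost its call without control replicate 1, and the list then kept 4 rises. The calls of Grb10 and Kcnq1ot1 also ended without day 6 replicate 1 and control replicate 3, respectively. The rows of Gnas, Plagl1, Igf2 and Kcnq1ot1 contain annotated small RNAs, and with such rows set aside the list had 3 rises. Igf2r, Snrpn and Mest had changes of -0.23, 0.38 and 0.49 that did not pass.

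**Figure D3:**
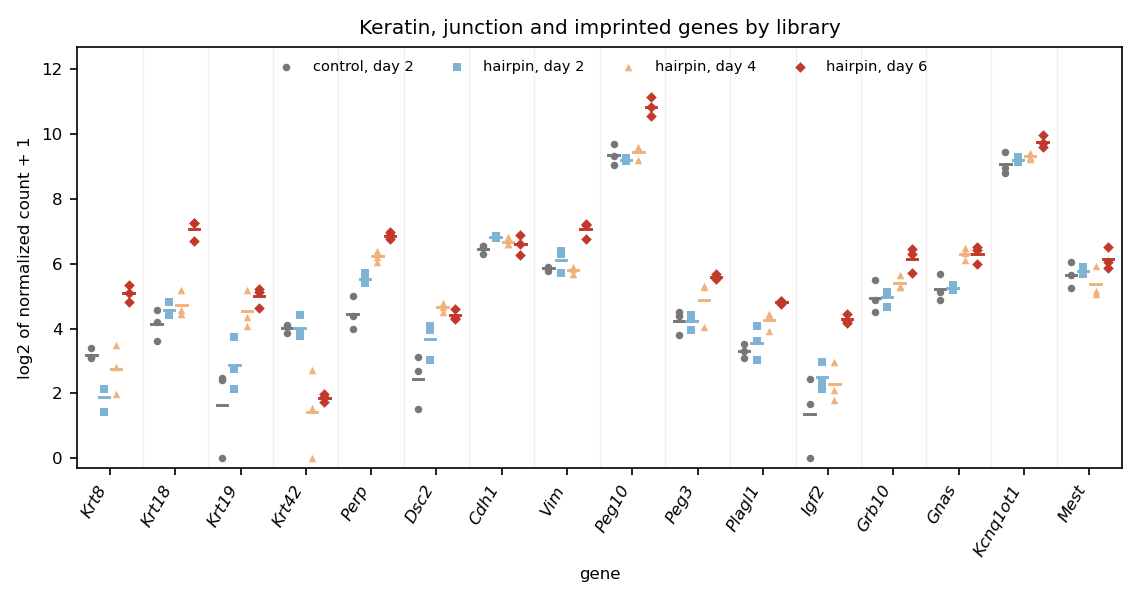
Log2 of the normalized count plus 1 (y axis) for keratin and junction genes, Vim and 8 imprinted genes (x axis) in each library, with symbols by group as in the plot of contractile genes and bars at the group means. Krt18, Krt19 and Peg10 stand above all controls at day 6, Cdh1 overlaps, and Krt42 is low from day 4 on.

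The genes that fell included much of the network that marks naive stem cells. Of 23 naive pluripotency genes compared (28 listed), 12 fell and 1 rose, against 3.33% and 3.16% of all genes. The other 10 did not pass, and the median change of the list was -0.73. All 23 reached the minimum in both groups. Without control replicate 2 the number that fell was 7. Pecam1, a surface protein of naive cells, fell from 63.0, 65.3 and 66.2 normalized counts to 23.3, 14 and 23.7 (-1.66, SE 0.21, adjusted p = 0.000141). Tcfcp2l1, a transcription factor downstream of LIF, fell from 342, 341 and 317 to 158, 153 and 216 (-0.94, SE 0.15, adjusted p = 0.00088), with means of 231 and 182 at day 2 and day 4 of the hairpin. Its row also contains a small RNA. Tcl1, an activator of AKT, fell by 1.38 on the log2 scale (SE 0.25, adjusted p = 0.00308), Manba, a lysosomal mannosidase, by 1.39 (SE 0.18, adjusted p = 0.00018) and Morc1 by 1.01 (SE 0.20, adjusted p = 0.00586).

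The other members of the naive list varied. Klf4 had 37.9, 17.4 and 15.3 normalized counts in the controls and 11.9, 17.9 and 27.2 at day 6 (-0.25, SE 0.38, adjusted p = 0.783), and Klf5 changed by -0.29 (adjusted p = 0.368). Both sets of values overlapped. Stat3 and its receptor chain Lifr had changes of -0.07 and 0.22, and the other receptor chain, Il6st, was the member that rose (0.76, SE 0.19, adjusted p = 0.0222). The number of risen members was 0 without control replicate 2, control replicate 3 or day 6 replicate 1. Esrrb, at 170, 197 and 190 in the controls and 151, 101 and 129 at day 6, was lower in every day 6 library and missed the threshold (-0.56, SE 0.17, adjusted p = 0.0573). Eras, an embryonic form of the RAS proteins, fell from 38.0, 29.4 and 31.9 to 8.26, 17.9 and 5.29 (-1.72, SE 0.41, adjusted p = 0.0164), a call lost without control replicate 1, day 6 replicate 1 or day 6 replicate 3 (0.00504 to 0.072).

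Among the core factors, Nanog, Sox2 and Fgf4 fell. Of 22 core pluripotency genes, all compared, 5 fell and 1 rose, against 3.33% and 3.16% of all genes. The other 16 did not pass, and the median change of the list was -0.25. Nanog, Zfp42 and Esrrb are also on the naive list, and the difference between the lists was not tested. Pou5f1 held 731, 672 and 808 normalized counts in the controls and 620, 680 and 518 at day 6, with day 6 replicate 2 inside the control range (-0.29, SE 0.14, adjusted p = 0.278). Nanog fell from 430, 465 and 551 to 279, 271 and 198 (-0.96, SE 0.16, adjusted p = 0.00188). Its mean was 303 ± 21.4 in the hairpin libraries of day 2 and 412 ± 69 at day 4 (SD, n = 3), and the day 6 to day 2 change under the hairpin was -0.29 (adjusted p = 0.35). Fgf4, a growth factor secreted by stem cells and a target of Sox2 and Pou5f1, fell from 231, 229 and 190 to 109, 95.9 and 101 (-1.07, SE 0.15, adjusted p = 0.000218). For Fgf4 the earlier hairpin means of 219 and 201 lay at the control level, and the day 6 to day 2 change was -1.09 (adjusted p = 0.000255).

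Sox2 fell from 544, 566 and 544 to 391, 359 and 375 (-0.55, SE 0.13, adjusted p = 0.0134), with means of 571 and 617 at day 2 and day 4. Its call ended without control replicate 2 (0.024 to 0.0552 over the 6 libraries), although the groups stood apart. Zfp42 fell by 0.65 and L1td1 by 0.46 on the log2 scale, each of which lost its call without any 1 of 5 libraries, all but day 6 replicate 2 (adjusted p up to 0.0827 and 0.147). The number that fell on this list was 2 without control replicate 2, and 3 without control replicate 1, control replicate 3 or day 6 replicate 3. Lin28b, which blocks maturation of let-7 microRNAs, was the member that rose, from 32.8, 37.7 and 40.7 to 73.6, 105 and 57.9 (1.03, SE 0.21, adjusted p = 0.00586), while Lin28a, Sall4 and Dppa4 had changes of 0.17, 0.04 and -0.12.

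**Figure D4:**
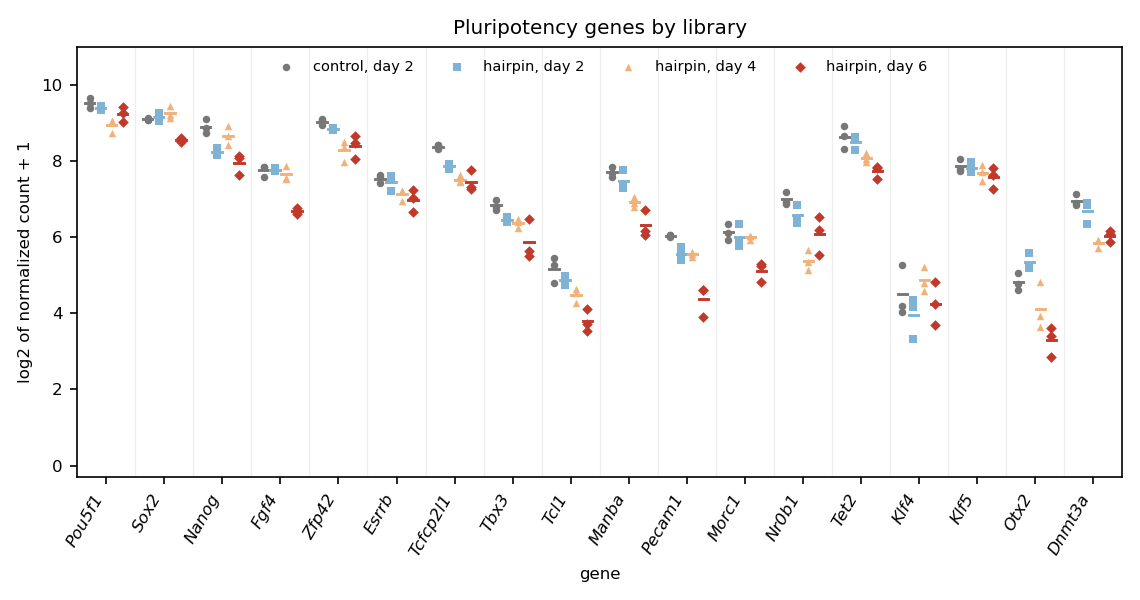
Log2 of the normalized count plus 1 (y axis) for 18 genes of the core, naive and primed pluripotent states (x axis) in each library, with symbols by group as in the plot of contractile genes and bars at the group means. At day 6 Fgf4, Sox2, Pecam1 and Otx2 lie below every control, while Pou5f1, Klf4 and Klf5 overlap the control.

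Genes of the primed state, which follows the naive one in the embryo, were mostly too low to compare. Of 8 compared (24 listed), 2 fell and 1 rose, against 3.33% and 3.16% of all genes. Otx2, a factor that opens the primed state, fell from 26.4, 32.2 and 23.6 to 6.24, 9.66 and 11.2 (-1.53, SE 0.31, adjusted p = 0.0062), and Dnmt3a, a methyltransferase that sets new DNA methylation, from 140, 115 and 118 to 66.4, 70.1 and 57.9 (-0.93, SE 0.18, adjusted p = 0.00415). Fgf5, the usual marker of primed cells, was listed at 0 in all 3 day 6 libraries and at 0, 1.84 and 1.1 in the controls. Grhl2, an epithelial factor, rose by 1.32 (adjusted p = 0.0201), a call lost without control replicate 2, control replicate 3, day 6 replicate 1 or day 6 replicate 2 (0.0424 to 0.0808).

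Markers of differentiated lineages were mostly too low to compare. Of 27 neural genes 4 were compared, 1 rose and 1 fell, against 3.16% and 3.33% of all genes. Nes and Nnat had entered through day 6 alone and Mapt through the control alone. Nes, an intermediate filament of neural progenitors that is also used as a mesenchymal marker, held 7.77, 0 and 6.16 in the controls and 30.8, 33.5 and 20.9 at day 6 (adjusted p = 0.013), a call lost without day 6 replicate 1 or day 6 replicate 2 (0.00908 to 0.0623). Mapt, the neuronal protein tau, fell by 1.90 on the log2 scale (SE 0.36, adjusted p = 0.00406), and its row contains a small RNA. Sox1 stood at 4.34 ± 3.04 in the control and 6.75 ± 2.87 at day 6 and Pax6 at 0.863 ± 1.49 and 2.83 ± 1.32 (SD, n = 3), below the minimum. Of 23 mesoderm and cardiac genes 1, Tbx20, was compared (0.14, not past the threshold), with none of the list called in either direction, at an unadjusted p under 0.05 or with voom weights.

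Endoderm and trophoblast lists shared most of their rises with the keratin, matrix and imprinted lists. Of 8 endoderm genes compared (30 listed), Krt19, Lrp2 and Lamb1 rose and none fell, against 3.16% and 3.33% of all genes. At an unadjusted p under 0.05 and with voom weights, 0 were lower. Krt19 had entered through day 6 alone. Lrp2, the endocytic receptor megalin, rose from 175, 155 and 141 to 405, 258 and 586 (1.33, SE 0.25, adjusted p = 0.00408), with a day 2 hairpin mean of 324. Gata6 and Sox17, which define endoderm, were below the minimum, Gata6 at 3.67 ± 2.07 and 3.0 ± 1.58 and Sox17 at 0 in all day 6 libraries. Of 4 trophoblast genes compared, Krt8, Krt18 and Peg10 rose and Tead4 fell, Krt8 having entered through day 6 alone and Tead4 through the control alone. Cdx2, the factor that founds the trophoblast, was listed at 0 in all 3 controls and in the hairpin libraries of days 2 and 4, and held 5.25, 3.9 and 6.64 at day 6, under the minimum. Elf5, Gata3, Hand1 and Krt7 were listed at 0 in all 6 libraries.

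Among 26 p53 targets compared (31 listed), 6 rose and 1 fell, against 3.16% and 3.33% of all genes. Beside Perp, Plk2, a stress-induced kinase, rose from 95.8, 87.7 and 90.8 to 181, 169 and 223 (1.04, SE 0.16, adjusted p = 0.00076), and Pmaip1, which encodes the death-promoting protein NOXA, from 38.4, 22.3 and 20.8 to 86.4, 64.6 and 51.1 (1.30, SE 0.25, adjusted p = 0.0044). Pmaip1 was higher at day 4, at 125. Ccng1, a cyclin induced by p53, rose from 522, 592 and 653 to 993, 1192 and 819 (0.75, SE 0.16, adjusted p = 0.00974), a call lost without control replicate 1 (0.00394 to 0.0535). Trp53 itself (-0.02, adjusted p = 0.976) and the direct targets Mdm2 (0.34) and Bax (-0.44) did not pass. Cdkn1a, the p21 inhibitor of the cell cycle, held 8.63, 2.76 and 3.31 in the controls and 13.5, 12.5 and 11.3 at day 6. It missed the threshold (1.32, SE 0.40, adjusted p = 0.0609). It was the p53 target that had entered through day 6 alone, so its groups could not overlap. Ei24 was the member that fell (-1.29, SE 0.25, adjusted p = 0.00421), and 2 members fell without control replicate 2.

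S phase genes had falls and no rise. Of 39, all compared, 3 fell, against 3.33% of all genes, and none rose, with 9 lower and 0 higher at an unadjusted p under 0.05 and 4 lower with voom weights. Without overlap, 11 of the 39 were lower and 1 was higher, against 13.1% and 11.1% of all genes. The 3 were Uhrf1 (-0.98, SE 0.17, adjusted p = 0.00181), Dtl (-0.93, SE 0.19, adjusted p = 0.00508) and Mcm4 (-0.90, SE 0.19, adjusted p = 0.00704). Mcm4, a subunit of the replicative helicase, held 103, 122 and 104 in the controls and 50.6, 52.5 and 74.2 at day 6, and was already at 53.4 in the hairpin libraries of day 2. Of 35 genes of G2 and mitosis, 2 passed as higher, Hmmr and Kif2c, against 3.16% of all genes. The Kif2c row held 5876, 6982 and 11294 in the controls and 14151, 19177 and 12199 at day 6. With it, the list summed to 13435 to 18527 in the controls and 19090 to 26389 at day 6. The reason for this high level was not tested. Neither call held when control replicate 1 or day 6 replicate 1 was left out, so that the list then had 0. It had 1 without control replicate 2, control replicate 3 or day 6 replicate 2. Mki67, the proliferation marker, had a change of 0.32 that did not pass. Myc held 23.2, 26.0 and 21 in the controls and 21, 18.7 and 31.3 at day 6 (-0.01, SE 0.29, adjusted p = 0.991).

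Of 10 growth arrest and cell cycle inhibitor genes compared (19 listed), Rb1 and Ccng1 rose and none fell, against 3.16% and 3.33% of all genes. The median change was -0.19, with 3 higher and 4 lower at an unadjusted p under 0.05. Cdkn1a, not called, had entered through day 6 alone. Without day 6 replicate 3, 1 member was called lower. Rb1, the retinoblastoma protein that restrains S phase entry, rose by 1.52 (SE 0.34, adjusted p = 0.0105). Its call ended without control replicate 2 or day 6 replicate 2 (0.00371 to 0.0571), and its row contains a small RNA. Of 32 histone genes compared, H1f0 fell by 0.97 on the log2 scale (adjusted p = 0.00924) and H3f3a and Hist1h1b rose. The shares over all genes were 3.33% lower and 3.16% higher. H2afy, not called, had entered through day 6 alone. Control replicate 3 stood apart for H3f3a, at 124 against 38.5 and 34.2 in the other controls and 141, 173 and 112 at day 6. The 2 rises were lost without control replicate 1, control replicate 2, day 6 replicate 1 or day 6 replicate 2, and the fall without control replicate 2. Histone messages also come in many near-identical copies, so reads between them may have been split.

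In energy metabolism, several glycolytic enzymes fell. Of 20 glycolysis genes compared (23 listed), 4 fell and 1 rose, against 3.33% and 3.16% of all genes. Hk1, not called, had entered through the control alone. Hk2, hexokinase 2, which traps glucose in the cell, fell from 1126, 1034 and 1047 to 712, 513 and 661 (-0.78, SE 0.14, adjusted p = 0.00262). Pfkp, the platelet form of phosphofructokinase, fell from 132, 102 and 75.9 to 35.8, 28.6 and 44.5 (-1.47, SE 0.21, adjusted p = 0.000307), although at day 4 it stood at 138. Aldoa, aldolase A, fell by 0.91 on the log2 scale (SE 0.17, adjusted p = 0.00379) and Ldhb by 0.66 (SE 0.13, adjusted p = 0.00544), both likewise from day 4 means above the control, 354 and 246. Gapdh, Ldha and Pgk1 had changes of 0.19, 0.14 and -0.21 that did not pass. Pdk1, the kinase that keeps pyruvate out of mitochondria, rose from 282, 251 and 244 to 413, 384 and 440 (0.67, SE 0.14, adjusted p = 0.00864), and 2 members rose without day 6 replicate 3.

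Low oxygen response genes overlap with these steps, and of 14 compared 4 fell and 1 rose, against 3.33% and 3.16% of all genes. Of the falls, Vegfa had entered through the control alone. Vegfa, the growth factor of blood vessels, held 30.2, 19.9 and 17.6 in the controls and 3.75, 5.46 and 0 at day 6 (adjusted p = 0.00196), with 15.6 and 43.3 at day 2 and day 4. Ak4, a mitochondrial adenylate kinase, fell from 171, 123 and 122 to 45.3, 46.0 and 58.8 (-1.45, SE 0.19, adjusted p = 0.000161), and Kdm3a, a histone demethylase, by 0.61 on the log2 scale (SE 0.13, adjusted p = 0.00636). Plod2, named above among matrix genes, was the member that rose, and Hif1a and Bnip3 had changes of 0.29 and 0.30.

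Of 20 genes of the ATF4 and amino acid response, 3 fell and 1 rose, against 3.33% and 3.16% of all genes. Slc7a3, a transporter of cationic amino acids, fell from 338, 291 and 269 to 147, 99.1 and 130 (-1.26, SE 0.19, adjusted p = 0.000475). Asns, asparagine synthetase, fell by 0.74 on the log2 scale (adjusted p = 0.00916), a call lost without control replicate 3 (0.00531 to 0.0535), when 1 fall remained on the list. The rise of Sesn2 was lost without any 1 of the 6 libraries (0.0691 to 0.155). Of 41 genes of oxidative phosphorylation, 1 fell and none rose, against the same 3.33% and 3.16%. Of 22 cholesterol synthesis genes none passed, with 1 higher and 4 lower at an unadjusted p under 0.05 and 0 called with voom weights; 1 was called higher without day 6 replicate 2 and under each of 4 other scalings. Of 29 genes of ribosome biogenesis none passed, with 0 higher and 4 lower at an unadjusted p under 0.05 and 0 with voom weights.

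Ribosomal protein rows passed in 2 of 46 cases, against 6.49% of all genes in either direction, and both contain annotated small RNAs. Rps12 held 74.1, 508 and 1263 in the controls and 51.1, 47.7 and 45.1 at day 6 (-2.90, SE 0.60, adjusted p = 0.00672), with means of 1208 at day 2 and 53.2 at day 4. Control replicate 1 lay near the day 6 libraries and the other 2 controls far above them. Rpl30 rose from 537, 447 and 670 to 1020, 1210 and 1018 (0.99, SE 0.16, adjusted p = 0.000973). Reads of the messenger and of the small RNAs inside its gene cannot be told apart in these rows. With rows of this kind set aside, neither direction had a call among ribosomal proteins, and without day 6 replicate 3 there were 2 falls. Across the 137 named genes with a call, 17 contain an annotated small RNA.

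Among chromatin regulators, a Polycomb partner had the lowest adjusted p. Aebp2, a partner of the Polycomb repressive complex that writes methylation on histone H3, fell from 251, 239 and 254 to 80.4, 83.2 and 101 (-1.49, SE 0.14, adjusted p = 6.43e-06), through 177 at day 2 and 129 at day 4. Of 20 Polycomb genes compared it was 1 of 3 that fell, against 3.33% of all genes. None was called higher, against 3.16% (3 at an unadjusted p under 0.05 and 0 with voom weights). Bmi1 and Phc2, not called, had entered through day 6 alone. The other falls, of Mtf2 (-0.85, adjusted p = 0.0426) and Suz12 (-0.55, adjusted p = 0.0427), were lost without control replicate 1, control replicate 2, day 6 replicate 1 or day 6 replicate 2, which left 1. Without control replicate 3, Suz12 was also lost. The catalytic subunit Ezh2 and the core subunit Eed had changes of -0.15 and 0.11. Without control replicate 3, 1 gene of the list was called higher.

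Of 15 genes of DNA methylation, 4 fell and none rose, against 3.33% and 3.16% of all genes. None was higher at an unadjusted p under 0.05 or with voom weights. Tet2, which oxidizes methylated cytosine, fell from 321, 482 and 407 to 226, 229 and 184 (-0.90, SE 0.16, adjusted p = 0.00273). Zfp57, which guards methylation at imprinted loci, fell from 372, 355 and 404 to 224, 194 and 262 (-0.74, SE 0.14, adjusted p = 0.00406), with 180 at day 4. Uhrf1, which brings the maintenance methyltransferase to new DNA, fell from 189, 160 and 198 to 91.8, 104 and 81.2 (-0.98, SE 0.17, adjusted p = 0.00181), and Dnmt3a was given above. Dnmt1, Dnmt3b and Tet1 had changes of -0.45, -0.63 and 0.12 that did not pass.

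Among 27 other histone methylases and demethylases, 2 fell and 1 rose, against 3.33% and 3.16% of all genes. Kdm4a fell from 84.0, 72.1 and 96.5 to 28.0, 23.3 and 33.2 (-1.55, SE 0.22, adjusted p = 0.000278), and its hairpin mean was already 41.9 at day 2, with a day 6 to day 2 change of -0.57 (adjusted p = 0.154). Its row contains a small RNA. Whsc1, a methyltransferase for lysine 36 of histone H3, rose from 38.1, 44.5 and 25.6 to 91.1, 100 and 105 (1.47, SE 0.21, adjusted p = 0.000402).

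The FGF and WNT lists each had 1 call in each direction. In the FGF and ERK list, 1 of 14 rose and 1 fell, against 3.16% and 3.33% of all genes: the fall was Fgf4, and the rise, Dusp4, was lost without any 1 of the 6 libraries (0.0529 to 0.0822). Among 12 WNT genes 1 rose, having entered through day 6 alone, and 1 fell. Wls, the carrier that takes WNT proteins to the surface, held 5.18, 0 and 3.31 in the controls and 24.9, 27.5 and 41.7 at day 6 (adjusted p = 0.000373), in a row that contains a small RNA. Fzd5, a WNT receptor, fell from 110, 119 and 106 to 61.5, 60 and 71.1 (-0.79, SE 0.17, adjusted p = 0.00821) and was already at 57.9 at day 2. None of 5 interferon response genes passed in either direction, at an unadjusted p under 0.05 or with voom weights included. In the antigen presentation list, H2-M5, a nonclassical class I gene, fell from 105, 97.5 and 107 to 25.1, 30.3 and 17.5 (-2.08, SE 0.21, adjusted p = 1.05e-05), and its hairpin mean at day 4 was 19.4. Sqstm1, the autophagy receptor p62, fell from 164, 188 and 203 to 89.8, 90.9 and 77.5 (-1.09, SE 0.15, adjusted p = 0.000278), and the lysosomal protease Ctsl rose by 0.92 (SE 0.20, adjusted p = 0.00837).

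Several of the 20 largest falls lay outside these lists. Mmrn2, a matrix protein of blood vessels, fell from 92.3, 67.5 and 66.0 to 11.3, 15.6 and 17.1 (-2.29, SE 0.21, adjusted p = 6.43e-06) and had stood at 108 and 59.8 at day 2 and day 4. Ly75, an endocytic receptor, fell from 297, 275 and 254 to 61.6, 60.6 and 99.8 (-1.92, SE 0.22, adjusted p = 4.42e-05), with 250 and 193 at the earlier days. For She, an SH2 adaptor, the day 4 mean of 8.31 was as low as the 10.1 at day 6, from 43.9 in the control (-2.12, SE 0.38, adjusted p = 0.00243). Zc3hav1, an antiviral RNA-binding protein, fell by 1.93 on the log2 scale, Chmp4c, a membrane-scission protein, by 1.87, Inpp5d, the lipid phosphatase SHIP, by 1.55, and Slc25a20, the mitochondrial carnitine carrier, by 1.63. Aire, the autoimmune regulator, which stem cells also express, fell from 51.3, 43.7 and 42.3 to 15.5, 9.33 and 18.8 (-1.63, SE 0.28, adjusted p = 0.00176) and was not low at day 4, at 59.3. H2-M6-ps, Dnajc6, Fam63a, Gm13111 and Cdyl2 fell by 1.53 to 2.0. In all of these genes the day 6 libraries lay below the controls, as the naming rule required.

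Among the 20 largest rises, those outside the lists included Slc25a24, a mitochondrial carrier of ATP, from 3.45, 5.52 and 3.23 to 29.4, 30.3 and 56.9 (2.94, SE 0.43, adjusted p = 0.000373). Fam107b went from 8.63, 10.1 and 15.4 to 66.8, 70.9 and 53.9 (2.42, SE 0.28, adjusted p = 4.42e-05). Phldb2, a protein that anchors microtubules near adhesions, rose from 17.2, 7.36 and 7.72 to 55.4, 57.6 and 57.8 (2.40, SE 0.31, adjusted p = 0.000153). For these 3 genes the hairpin means at day 4 were 16.2, 38.1 and 25.2, between the control and day 6. Rbms1 rose by 1.89, Grip1, a scaffold protein, by 1.93 and NEWGENE87 by 1.76. The calls of Chd7, a chromatin remodeller (1.73, adjusted p = 0.0134), and Morc4 (1.78, adjusted p = 0.0153) were lost without some single libraries: for Chd7 without control replicate 1, control replicate 3 or day 6 replicate 1 (0.00339 to 0.0701), for Morc4 without control replicate 2 or day 6 replicate 1 (0.0112 to 0.0923).

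**Figure D5:**
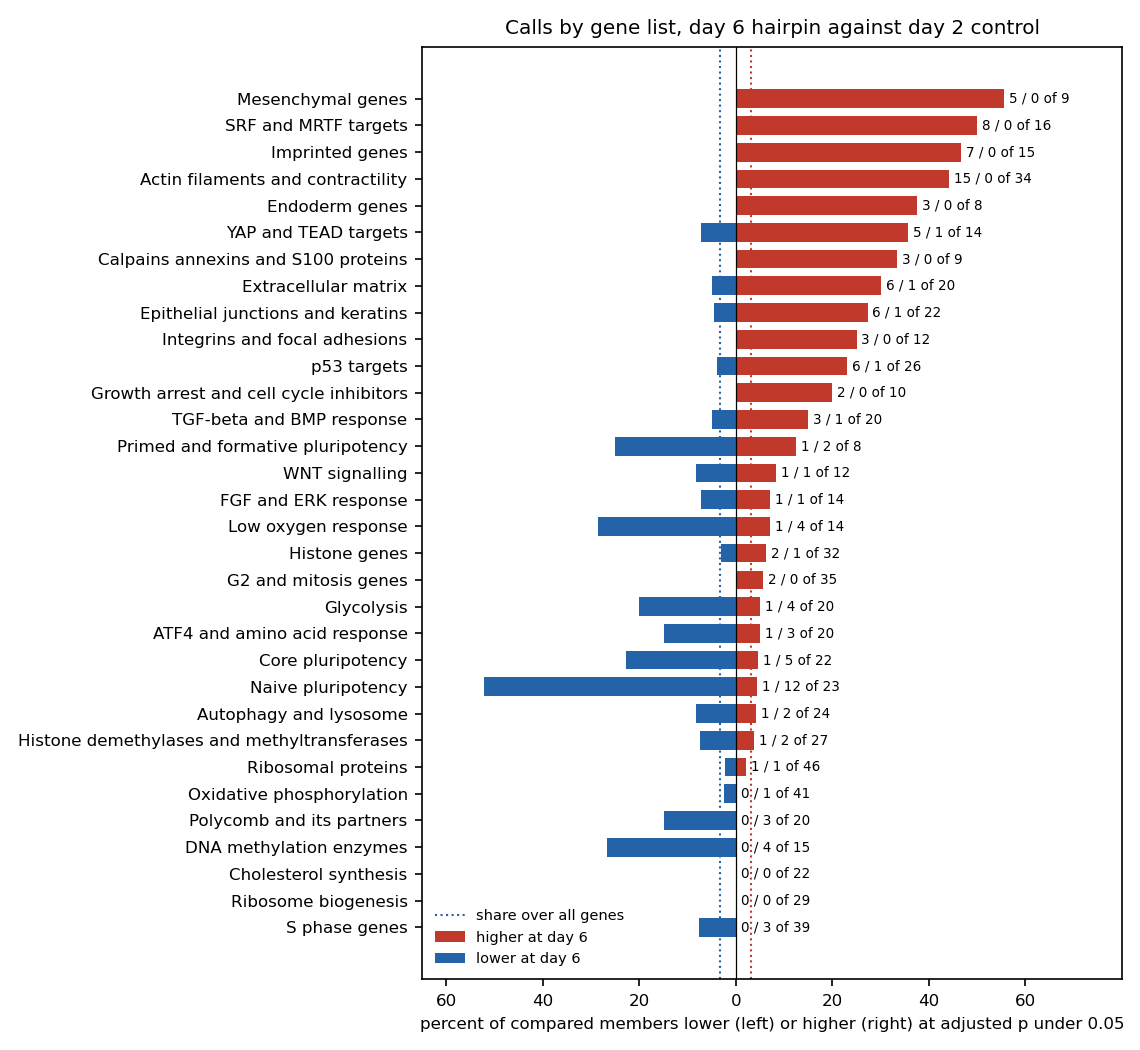
For each gene list (y axis), the percent of its compared members that were lower (bars to the left) or higher (bars to the right) at day 6 at an adjusted p under 0.05, with the counts higher / lower of compared printed at the right and dotted lines at the shares over all 8041 genes (3.33% lower, 3.16% higher). Mesenchymal, SRF and MRTF, imprinted and actin lists are among those with bars on the right alone, and naive pluripotency has the longest bar on the left (12 of 23). Bars include genes that had reached the minimum in day 6 or control libraries alone. Without such genes, 2 of 5 mesenchymal, 3 of 11 SRF and MRTF, 6 of 13 imprinted and 10 of 29 actin genes rose. Lists with few compared members rest on few genes.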

How the data were processed

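Total RNA was sequenced with standard Illumina libraries, per the labels. The authors deposited 1 table of log2 normalized counts for 37477 rows and 12 libraries; BWA, DESeq and mm9 are named without versions or roles in the submitters' processing notes. No deposited log2 value is below 0, so a 0 means at most 1 normalized count and was treated as 0 on the linear scale. Steps between low values show weighted counts, so no count test was run, and depth was recovered from the worth of 1 read.

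The fit used log2(value + 1) of the 8739 rows that reached 10 normalized counts in 3 or more of the 12 libraries, the limma package (3.58.1, R 4.3.3), a mean for each of the 4 groups, a variance trend and Benjamini-Hochberg adjustment over all tested rows (threshold 0.05). Adjusted p-values come from this fit, except those given with a library left out, for which the fit was repeated. Changes are on that log2 scale and understate those of low genes. The script was tested on simulated data. Genes named were the 20 largest rises and falls past the threshold without overlap and with a mean of at least 20, up to 8 called members per list, and a fixed set; some genes that the rule picked are not reported here. The genes compared, the lists and the rule were chosen with earlier results of these data known. Small RNAs inside genes were taken from GENCODE M21, promoters from RefSeq GRCm38.p6 by symbol (5847 of the 8041 genes had a window). Alternatives covered scaling, pseudocount, filter, libraries fitted, precision weights, threshold, replicate block and each library left out.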

Additional observations from a re-analysis of the deposited data

How the results depend on the processing

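The 254 higher and 268 lower genes were most affected by leaving out single libraries, with 129 to 235 higher and 155 to 311 lower genes when each of the 6 was left out in turn. The largest losses came without day 6 replicate 1 (129 and 167) and without control replicate 1 (158 and 155); without control replicate 2 there were 174 lower genes. An adjusted p threshold of 0.01 gave 112 and 119. Under the other alternatives the counts ran from 211 to 271 higher and from 229 to 284 lower, including 218 and 242 with rows that contain small RNAs set aside, an alternative chosen after seeing the data.

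Whether replicate numbers pair the libraries is not stated in the labels, and the values do not settle it. Deviations of same-numbered control and day 6 libraries correlated at -0.051, -0.018 and -0.261. Of the 3 control libraries, 0 correlated best with their own number. Yet the worth of 1 read in normalized counts rose with the number: 0.8628, 0.9197 and 1.1028 in the controls and 0.7505, 0.7793 and 0.9481 at day 6. With the replicate number as a block, 235 genes were higher and 253 lower, and 5 of the 137 calls of named genes ended.

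Of those 137 calls, 98 held without any 1 of the 6 libraries. No called gene under the naming rule changed direction under an alternative, but 5 uncalled ones did, and the cause was not tested. As libraries were left out, Hnrnpk (-0.01) ran from -0.16 to 0.19, turning to 0.12 without control replicate 3 and to 0.19 without day 6 replicate 3, and Ptbp1 (0.11) ran from -0.11 to 0.35. Myc (-0.01) ran from -0.22 to 0.13, with 0.06, 0.05 and 0.13 without control replicate 2, day 6 replicate 1 and day 6 replicate 2. Trp53 (-0.02) ran from -0.19 to 0.14, with 0.06 without control replicate 1 or control replicate 2 and 0.14 without day 6 replicate 1, and Gapdh (0.19) from -0.01 to 0.40. Upper quartile scaling and scaling to the total outside the 3 dominant rows each put Hnrnpk at 0.02, Myc at 0.02 and Trp53 at 0.01, and quantile normalization put Hnrnpk at 0.03. Other scalings moved the median change of all tested rows to at most 0.02. With 1146119 to 1503375 reads per library outside the 3 dominant rows, genes such as Srf, Sox1 and Gata6 stayed under the minimum and were not compared; whether deeper libraries would show a difference in them was not tested.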

Other observations

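Some genes past the threshold stand outside the lists and the rule and were chosen here after their values were seen. Has2, which makes hyaluronan for the cell surface, was listed at 0 in all 3 controls and held 17.3, 22.6 and 17.6 normalized counts at day 6 (adjusted p = 2.5e-05 by limma), with hairpin means of 5.19 at day 2 and 19.2 at day 4. Clca6 held 0, 0 and 1.1 in the controls and 31.4, 31.2 and 51.9 at day 6 (adjusted p = 1.05e-05), with 4.09 and 11.1 at the earlier days. Both genes had entered through day 6 alone, so their groups could not overlap.

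Klf6, a zinc finger factor of the KLF family, rose from 19, 32.2 and 28.7 to 71.3, 95.8 and 76.7 (1.60, SE 0.23, adjusted p = 0.000324), passing through 35.6 and 51.1. Rlim, the X-linked ubiquitin ligase also named RNF12, rose from 430, 388 and 402 to 750, 749 and 799 (0.91, SE 0.12, adjusted p = 0.000211), with 791 at day 4. Trrap, a scaffold of histone acetyltransferase complexes, fell from 1386, 863 and 1063 to 391, 310 and 632 (-1.35, SE 0.30, adjusted p = 0.0116), in a row that contains annotated small RNAs.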
